A study of Mus musculus with 122 samples.

Results

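The genes described here encode 1 colony-stimulating factor and the receptor chains through which the colony-stimulating factors, interleukin 3 and stem cell factor act. They are the ligand Csf1 (ENSMUSG00000014599) and the receptors Csf1r (ENSMUSG00000024621), Csf2ra (ENSMUSG00000059326), Csf2rb (ENSMUSG00000071713), Csf2rb2 (ENSMUSG00000071714), Csf3r (ENSMUSG00000028859), Kit (ENSMUSG00000005672) and Il3ra (ENSMUSG00000068758). They were taken by gene name, and all 8 were among the 22050 genes of each of the 3 deposited count tables. Expression is given for each library as CPM, counts scaled to a common library size with edgeR's TMM factors. The counts come from the 3′ ends of transcripts, so levels were compared between libraries for 1 gene and not between genes.

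The study measured RNA in 99 libraries of sorted mouse lung macrophages and monocytes that carried changed alleles of Cebpb, the gene of the transcription factor C/EBPβ, or of Csf2rb. It also holds open chromatin (ATAC-seq) and C/EBPβ binding (ChIP-seq) in alveolar macrophages, the macrophages of the air spaces. Adult alveolar macrophages were obtained by bronchoalveolar lavage, and premature alveolar macrophages and Ly6C high monocytes from whole lungs at embryonic day 18 (E18). Total counts per library ranged from 642269 to 17834909.

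Constitutive knockouts were Cebpb -/- mice of strain C/EBPb tm1Pfj on a mixed background, with Cebpb +/+ controls. Adult Cebpb -/- alveolar macrophages were sorted as CD11b low (n = 4) and CD11b high (n = 4), and both were set against the same 4 wild-type libraries. The same strain supplied adult females of facility 1 (2 +/+, 3 +/-, 2 -/-), females of facility 2 (3 and 2), males of a facility the labels do not name (2 and 2), premature alveolar macrophages (3 and 4), Ly6C high monocytes (3 and 4), and adult libraries made beside the ATAC-seq (3 and 3, called chromatin-matched below). The conditional knockouts were on C57BL/6. LyzM Cre/Cre Cebpb flox/flox mice (n = 2) were set against Cebpb flox/flox mice without Cre (n = 2), so that Cre and deletion cannot be told apart there. CD11c +/Cre Cebpb flox/flox mice (n = 4) were set against CD11c +/Cre mice (n = 3), whose control carries the Cre. LyzM-Cre also acts in other myeloid cells, and CD11c-Cre also acts in dendritic cells.

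The Lip strain (C/EBPtm1.2Acle, mixed background) is named after LIP, the short C/EBPβ isoform that lacks most of the activating region. Adult Lip/Lip alveolar macrophages were sorted as CD11b low (n = 4) and CD11b high (n = 4) and set against the same 3 +/+ libraries, and a chromatin-matched set held 4 Lip/Lip and 4 +/+ libraries. Csf2rb -/- premature alveolar macrophages (Csf2rbtm1Cgb/J, C57BL/6, E18, n = 3) were set against Csf2rb +/+ cells (n = 4). In the chimeras, irradiated hosts received a marrow mixture of 33% wild-type CD45.1 cells without Cre and 66% CD11c-Cre Cebpb flox/flox CD45.2 cells. Alveolar macrophages of each donor were sorted from whole lungs 5 weeks (3 wild-type, 4 knockout) and 10 weeks (4 and 3) after transfer. The donors differ in Cre and in the CD45 allele as well as in Cebpb, and these cannot be told apart. The labels name no animals, so p-values measure the spread between libraries.

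CSF1 and its receptor tyrosine kinase CSF1R sustain monocytes and most tissue macrophages. GM-CSF (CSF2) binds a specific α chain, CSF2RA, and signals through the shared β chain CSF2RB, and it is the cytokine that alveolar macrophages need to mature. IL-3 uses its own α chain, IL3RA, with CSF2RB or, in mice, with the second β chain encoded by Csf2rb2, while the G-CSF receptor CSF3R is best known in granulocytes and KIT, the receptor of stem cell factor, in stem cells and mast cells.

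The deposited chromatin data cover these loci, and the promoters at which they bear on the members are shown first. Peaks were compared as present or absent per library, in the gene and 10 kb to either side. The ATAC-seq came from lavage macrophages of 2 MxCre control cultures and 3 MxCre Cebpb flox/flox cultures, kept for 7 days in 20 ng/ml CSF2 and then given 1000 units/ml IFNα. The C/EBPβ ChIP-seq came from 2 samples of C57BL/6 wild-type alveolar macrophages. Of 129652 merged ATAC regions, 40.4% had a peak in every library, 3.83% in both controls and no knockout, and 4.34% in all 3 knockouts and no control. The peak heights below are the authors' own values, the highest over the libraries. The 250 bases before the RefSeq start site (GRCm38.p6) are given 5′ to 3′ for 4 members: Il3ra, Csf2ra and Csf3r, whose start sites lay in C/EBPβ peaks, and Kit, whose start site had an ATAC peak in knockout cultures only. The bases in capitals match TTGCNNAA (a C/EBP-type motif) in Il3ra and GAGGAA (an ETS and PU.1-type motif) in Csf2ra, Csf3r and Kit. TTGCNNAA had no match in the Csf2ra, Csf3r or Kit windows, although the Csf2ra and Csf3r starts lay in C/EBPβ peaks. The Il3ra window is chr14:14346245-14346494 (plus strand), the Csf2ra window chr19:61228419-61228668 (minus strand), the Csf3r window chr4:126024409-126024658 (plus strand) and the Kit window chr5:75574737-75574986 (plus strand).
Il3ra: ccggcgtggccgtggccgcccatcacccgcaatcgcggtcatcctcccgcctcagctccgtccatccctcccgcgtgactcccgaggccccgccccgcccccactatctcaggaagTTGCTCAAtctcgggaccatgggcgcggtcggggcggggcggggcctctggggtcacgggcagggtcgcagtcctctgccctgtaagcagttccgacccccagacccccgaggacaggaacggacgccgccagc
Csf2ra: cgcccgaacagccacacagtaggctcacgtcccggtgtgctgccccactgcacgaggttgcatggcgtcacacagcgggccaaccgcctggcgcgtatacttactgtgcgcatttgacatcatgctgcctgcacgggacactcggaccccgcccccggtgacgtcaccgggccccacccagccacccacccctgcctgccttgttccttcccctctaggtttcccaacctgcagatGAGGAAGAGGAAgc
Csf3r: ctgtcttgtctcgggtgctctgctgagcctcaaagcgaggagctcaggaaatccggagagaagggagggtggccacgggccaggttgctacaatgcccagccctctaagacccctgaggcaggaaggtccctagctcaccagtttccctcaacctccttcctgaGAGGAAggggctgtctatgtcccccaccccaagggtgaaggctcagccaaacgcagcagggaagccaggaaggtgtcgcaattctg
Kit: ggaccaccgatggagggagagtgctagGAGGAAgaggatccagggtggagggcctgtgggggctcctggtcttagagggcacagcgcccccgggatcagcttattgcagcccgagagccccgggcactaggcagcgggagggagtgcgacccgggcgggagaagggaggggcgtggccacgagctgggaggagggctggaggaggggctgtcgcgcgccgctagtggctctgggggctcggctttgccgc

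The Il3ra start site lay in a C/EBPβ peak found in both ChIP samples (chr14:14345622-14346777, up to 26.6-fold enrichment) and in an ATAC peak of all 5 cultures. TTGCNNAA, searched on both strands, began 134 bases before its start, and 10.8% of the 32851 promoter windows in the RefSeq table held a match. The Csf2ra start site lay in a C/EBPβ peak of both samples (chr19:61227678-61228991, up to 27.3-fold) with ATAC peaks in all 5 cultures, and its pair of adjoining GAGGAA matches ended just before the start. GAGGAA occurred in 28.3% of all promoter windows. All windows searched, also those behind these shares, reach past the start site, beyond the bases printed above. These matches describe the letters only.

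At Csf3r, C/EBPβ peaks of both samples covered the start site (chr4:126024230-126025074, up to 15.6-fold) and a site upstream, at -6.79 kb (chr4:126017259-126018471, up to 38.8-fold). An ATAC region 0.427 kb after the Csf3r start (chr4:126024893-126025279, within the gene) had a peak in both controls and in none of the 3 knockout cultures, while the other 5 of its 6 ATAC regions had one in every culture. Kit differed from the other loci: no C/EBPβ peak was found within 10 kb, and none shared by both samples within 50 kb. The ATAC region over its start site (chr5:75574687-75575199) was called in no control and in 2 of 3 knockout cultures, and one inside the gene, 29.5 kb after the start (chr5:75604282-75604697), in no control and all 3 knockouts. Regions called in knockouts only were not particular to Kit. A Csf2ra region outside the gene (chr19:61207507-61207741) was called in no control and all 3 knockouts. A region within Csf2rb (chr15:78338580-78338947) was called in no control and 2 knockouts. Presence of a peak depends on the depth of each library, and with 2 and 3 cultures it was not tested.

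Csf1 had an open start site in all 5 cultures and no C/EBPβ peak shared by both samples. A region upstream of it, at -9.35 kb (chr3:107769598-107770049, outside the gene) was open in both controls and in no knockout, and 1 of the 2 ChIP samples had a peak there. At Csf2rb, 5 C/EBPβ regions were found in both samples, the highest over the lower-numbered end of the gene (chr15:78325499-78326431, up to 28.9-fold). The Csf2rb region chr15:78355413-78355833, outside the gene, held C/EBPβ peaks of both samples and ATAC peaks of both controls and no knockout. Csf1r had 9 ATAC regions, 6 of them in every culture, and 2 regions bound in both ChIP samples. Csf2rb2 had an open start site in every culture and 1 region bound in both samples, at -1.37 kb. None of the 4 motif searches matched in the Csf1 window. The other 2 motifs searched were TTGCGCAA (0.183% of windows) and TTCNNNGAA (a STAT-type motif, 8.3% of windows). The Csf2rb2 window held 1 TTCNNNGAA match, beginning at base -15 from the start, and 2 GAGGAA matches.

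Among the 12 comparisons of cells with and without Cebpb, a gene was called when its adjusted p was under 0.05 (edgeR's quasi-likelihood test, Benjamini-Hochberg over all genes tested). Csf1 was higher in 10 of the 12, Kit in 8 of the 9 in which it was tested, and Csf1r in 7, with 1 in which it was lower. Il3ra was higher in 5 and lower in 2. The β chains went mostly the other way, with Csf2rb lower in 4 and higher in 1 and Csf2rb2 lower in 4. Csf2ra and Csf3r were each higher in 2. These counts include the calls of Csf2ra and Csf2rb in the chimeras at 10 weeks, which were lost with the replicate number as a block. Kit was not tested with LyzM-Cre, with CD11c-Cre or in Ly6C high monocytes, where it was scarce in both groups. With few Kit counts in most controls, it mostly passed the filter on low counts through knockout libraries. Its share of calls among tested comparisons is therefore partly set by that filter. Several of these comparisons share control libraries, so they are not independent of one another.

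**Figure D1:**
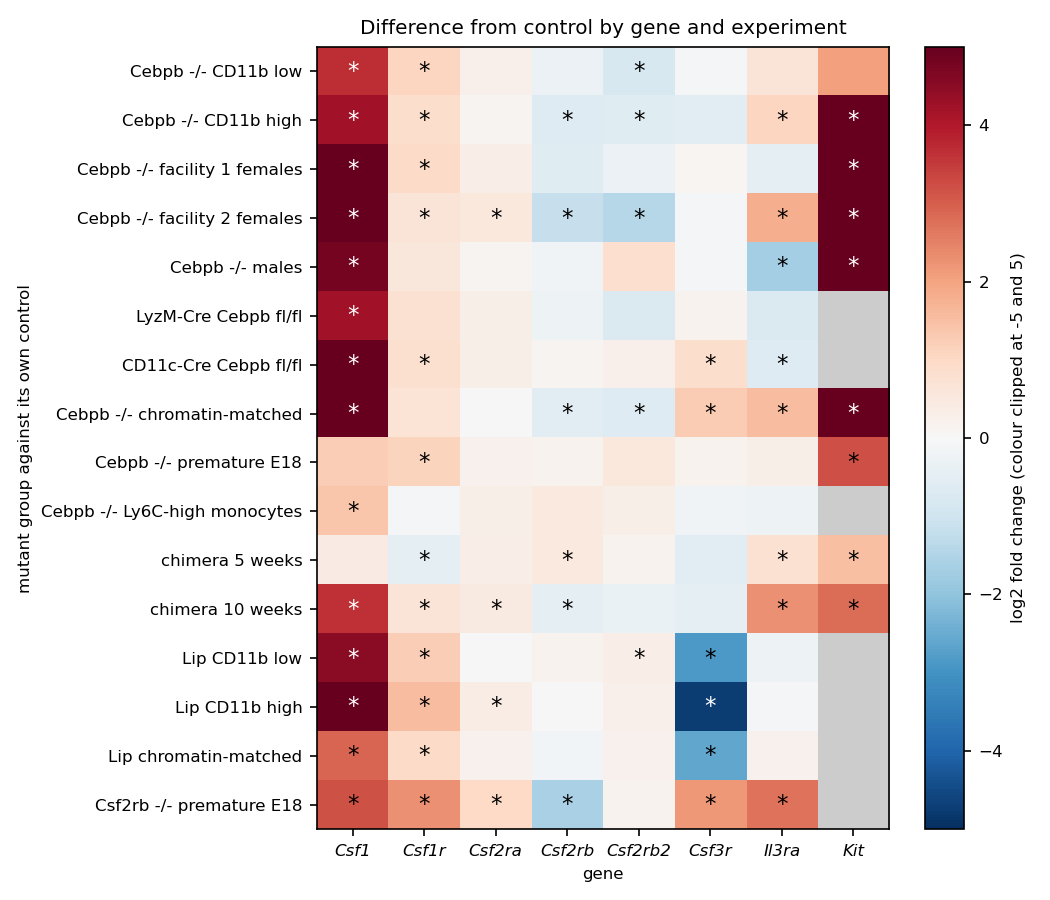
Log2 fold change of each member (columns) in the 16 comparisons of mutant with control libraries (rows), by colour clipped at -5 and 5. A star marks adjusted p under 0.05 and grey a gene that was not tested; the Csf1 column is above 0 in every row, and the Csf3r column is strongly negative in the Lip rows.

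The members called in each comparison are given beside the share of all tested genes called in the same direction. In Cebpb -/- CD11b low macrophages 2 members of 8 were higher (against 8.29% of all genes) and 1 lower (6.83%), and in CD11b high macrophages 4 were higher (12.2%) and 2 lower (11.8%). In females of facility 1 the knockout had 3 of 8 higher (12.5%) and none lower (10.8%), in females of facility 2 it had 5 higher (24.9%) and 2 lower (22.7%), and in males 2 higher (7.12%) and 1 lower (3.76%). With LyzM-Cre 1 of 7 was higher (2.96%) and none lower (1.72%), and with CD11c-Cre 3 of 7 were higher (10.3%) and 1 lower (6.48%). In the chromatin-matched knockout 4 of 8 were higher (14.6%) and 2 lower (12.6%). Premature alveolar macrophages without Cebpb had 2 of 8 higher (12%) and none lower (9.55%), and Ly6C high monocytes 1 of 7 higher (1.99%) and none lower (1.64%). The chimeras had 3 of 8 higher (12.1%) and 1 lower (10.5%) at 5 weeks, and 5 higher (24.5%) and 1 lower (21.1%) at 10 weeks. The 10-week counts come from a fit without the replicate block, with which Csf2ra and Csf2rb were not called.

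In Lip macrophages 3 of 7 were higher and 1 lower in CD11b low (14% and 11.8% of all genes) and again in CD11b high cells (20.8% and 18.5%), and 2 were higher (3.1%) and 1 lower (1.84%) in the chromatin-matched set. With loss of Csf2rb at E18, 5 of 7 were higher (11%) and Csf2rb itself was lower (11.4%). The median log2 fold change of the tested members was 2.18 there, against -0.08 for all tested genes. It was 0.44 in Cebpb -/- CD11b low and 0.51 in CD11b high cells, against 0.00 and 0.01 for all genes.

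The targeted genes and the labelled cell types were checked first. Cebpb was called lower in each of the 12 deletion comparisons, with log2 fold changes from -5.34 to -2.95, and was not lower in Lip/Lip cells (log2 fold change 0.63 in CD11b low and 0.30 in CD11b high) or in Csf2rb -/- cells (-0.26, adjusted p = 0.318). All 12 alveolar macrophage markers were detected in every group of lavage cells, and their summed level was 10543 to 12572 CPM in adult wild-type libraries, against 3409 to 4372 CPM (CD11b low) and 1343 to 3409 CPM (CD11b high) without Cebpb. The 3 Csf2rb -/- libraries stood apart. They held 9387 to 9418 detected genes at 1642946 to 2907179 counts, against 11639 to 12557 genes at 2549216 to 7949564 counts in Csf2rb +/+ libraries. Their pairwise correlations were 0.907 to 0.913, below those within every other group, and their alveolar macrophage markers summed to 149 to 383 CPM against 2524 to 4422 CPM in +/+ libraries and 586 to 792 CPM in wild-type Ly6C high monocytes, which are in another table. All results on loss of Csf2rb rest on these 3 libraries, and the part of these differences in them was not tested. Markers of other cells were followed too. The 7 stroma and endothelium markers summed to at most 80.1 CPM in any library, and the 7 epithelium markers to 7.05 to 372 CPM, except in Ly6C high knockout (up to 871 CPM) and 10-week knockout chimera cells (up to 1280.0 CPM). Of the 5 eosinophil markers 4 were at 0 in adult wild-type and in both Cebpb -/- sorts. In bulk RNA, fewer cells of a type and less RNA per cell cannot be told apart.

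Csf1, the growth factor of macrophages, was low in controls and rose with loss of Cebpb in adult alveolar macrophages. Its level was 10.3, 11.6, 9.09 and 21.3 CPM in the 4 wild-type libraries. It was 138, 197, 157 and 182 CPM in Cebpb -/- CD11b low and 308, 182, 185 and 279 CPM in CD11b high libraries. Every knockout library lay above every control. The log2 fold change was 3.68 ± 0.29 (SE) in CD11b low (adjusted p = 4.704e-08) and 4.18 ± 0.29 in CD11b high cells (3.158e-09), and the CD11b fractions did not differ at the threshold (0.50 ± 0.23, interval 0.05 to 0.96, adjusted p = 0.3592).

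The females of both facilities and the males gave the same direction for Csf1. The facility 1 females had 1.95 and 4.61 CPM in wild type and 132 and 166 CPM in Cebpb -/- libraries (log2 fold change 5.47 ± 0.37, adjusted p = 9.398e-09, and 6.25 without wild-type replicate 2). Heterozygous cells of that facility had 5.45, 9.62 and 9.38 CPM, above both wild-type libraries, yet the difference was not called (1.26 ± 0.38, adjusted p = 0.1598, and 0.03777 without the filter on low counts). In that heterozygous comparison none of the 8 members was called by edgeR or DESeq2, 1 (Csf1) had an unadjusted p under 0.05, and 0.634% of all genes were called. The other strata separated as widely: 2.6 to 5.82 against 202 and 218 CPM in facility 2 (5.69 ± 0.29, adjusted p = 7.677e-11), and 4.61 and 4.48 against 115 and 131 CPM in males (4.77 ± 0.35, 4.824e-08). Averaged over the 3 strata, Csf1 was higher by 5.31 ± 0.19 (adjusted p = 3.688e-13). In that average 4 members were higher and 1 lower, against 23.4% and 22.1% of genes.

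Deletion restricted to cells with Cre gave the same direction. With LyzM-Cre, Csf1 was at 1.76 and 12.0 CPM in controls and 160.0 and 80.8 CPM in knockouts (log2 fold change 4.19 ± 0.64, adjusted p = 0.005966). The size rested on 1 control: it was 3.31 without control replicate 1 and 6.07 without control replicate 2. With CD11c-Cre, Csf1 was at 0, 0.590 and 0.844 CPM in controls and 21.2, 49.5, 24.8 and 14.4 CPM in knockouts (5.72 ± 0.59, adjusted p = 3.296e-05, and 6.37 without control replicate 3). In the chromatin-matched set the values were 8.40, 11.7 and 9.09 CPM in wild type and 512, 335 and 1129 CPM in Cebpb -/- (6.06 ± 0.50, adjusted p = 8.101e-05), the highest knockout levels of Csf1 in any group. Without knockout replicate 3 that log2 fold change was 5.43. Tables were scaled separately, so levels from different tables stand side by side without a test.

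**Figure D2:**
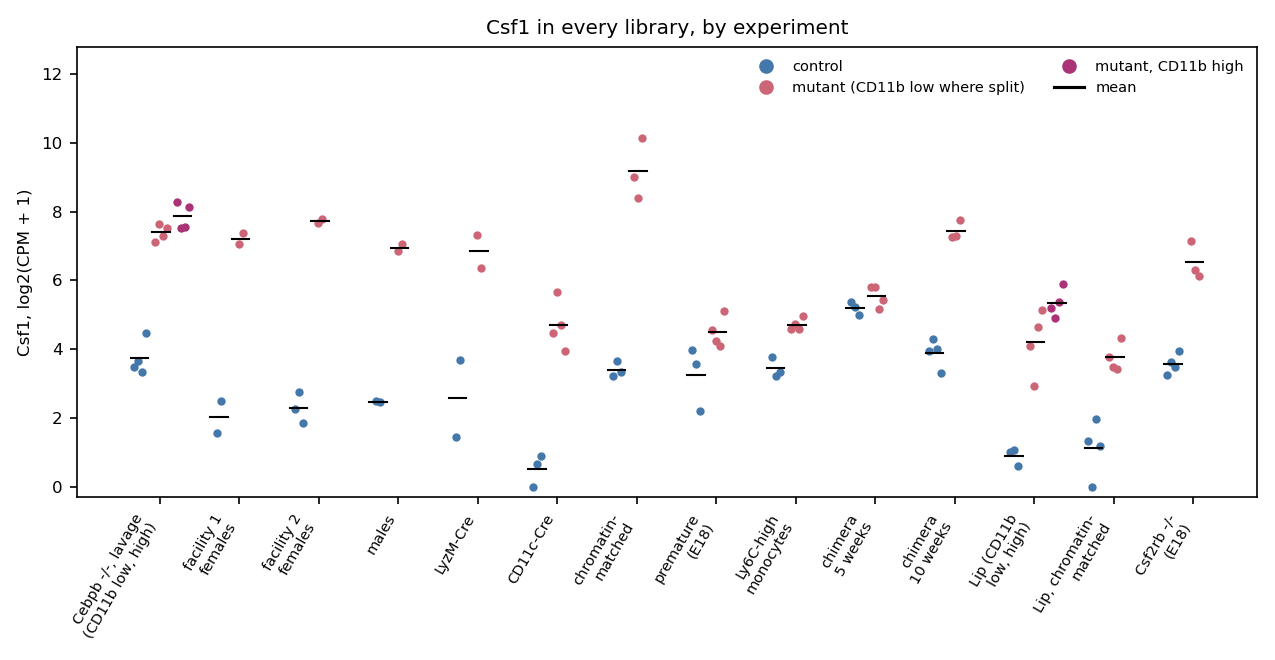
Csf1 in each library as log2(CPM + 1), by experiment, with controls in blue, mutants in pink and CD11b high mutants in purple; the bar is the group mean. Mutant libraries lie above the controls of their experiment in all experiments but the chimeras at 5 weeks, where the groups overlap.

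Before birth the rise of Csf1 with loss of Cebpb was smaller. Premature alveolar macrophages had 14.7, 10.8 and 3.65 CPM in wild type and 22.7, 18.1, 15.9 and 33.6 CPM in Cebpb -/- libraries. The groups did not overlap, but the difference missed the threshold (log2 fold change 1.22 ± 0.43, adjusted p = 0.05558) and passed it without the filter on low counts (0.03344) and with DESeq2 (0.03915). The knockout effect at E18 was smaller than that in adult CD11b low cells (difference -2.46, interval -3.41 to -1.51, adjusted p = 0.001242). That comparison of effects called 2 of 7 members, and 10.8% of all genes. Age, tissue digestion and the CD11b sort differ between the experiments and cannot be told apart. In Ly6C high monocytes Csf1 was at 12.7, 8.39 and 9.01 CPM in wild type and at 22.8, 25.4, 23.1 and 30.2 CPM in Cebpb -/- libraries (1.38 ± 0.28, adjusted p = 0.00766). It was not called without wild-type replicate 2 (1.24, adjusted p = 0.0854).

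Lip/Lip macrophages also had more Csf1. The 3 controls had 1.00, 1.12 and 0.538 CPM, CD11b low cells 16.0, 6.56, 24.0 and 34.5 CPM and CD11b high cells 35.4, 29.0, 40.7 and 58.3 CPM. Each Lip library was above each control (log2 fold change 4.52 ± 0.81, adjusted p = 0.001598, in CD11b low and 5.46 ± 0.74, 0.0001021, in CD11b high). The chromatin-matched Lip set gave 1.54, 0, 2.90 and 1.30 CPM in controls and 12.8, 10.3, 9.82 and 19.1 CPM in Lip/Lip cells (2.90 ± 0.54, adjusted p = 0.002618, and 3.69 without control replicate 3). The difference between the Cebpb -/- and the Lip effect on Csf1 did not pass the threshold in CD11b low (-0.80, interval -2.44 to 0.84) or CD11b high cells (-1.23, interval -2.58 to 0.13), and these intervals are wide.

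Csf1 was called higher in the Csf2rb -/- libraries at E18 as well, the libraries that stood apart in detected genes and alveolar macrophage markers. The level was 8.46, 11.4, 10.2 and 14.4 CPM in Csf2rb +/+ and 139.8, 78.1 and 69.0 CPM in Csf2rb -/- libraries, with no overlap (log2 fold change 3.19 ± 0.37, adjusted p = 0.0003136). Set against it, the effect of Cebpb loss at E18 was lower by 1.92 (interval -3.08 to -0.76, adjusted p = 0.04563), on a scale on which the median of all genes was shifted by 0.106. That Csf1 difference fell short of the threshold when any of 10 of the 14 libraries was left out: Cebpb wild-type replicates 1 and 2, Cebpb knockout replicates 1, 2 and 3, Csf2rb wild-type replicates 1 to 4 and Csf2rb knockout replicate 1 (adjusted p up to 0.1845).

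CSF1R is the receptor of CSF1. Csf1r was higher in 7 of the 12 deletion comparisons, over a narrower range than its ligand. Adult wild-type libraries had 270.2, 189.5, 350.0 and 372 CPM, CD11b low knockouts 563, 718, 706 and 542 CPM and CD11b high knockouts 648, 539, 482 and 525 CPM. The groups did not overlap (log2 fold change 1.09 ± 0.22, adjusted p = 0.001295, and 0.88 ± 0.21, 0.004715). With CD11c-Cre the controls had 295, 319 and 324 CPM and the knockouts 468, 518, 455 and 718 CPM (0.80 ± 0.16, adjusted p = 0.004546). In the females the calls were less stable. Facility 1 (222 and 348 against 647 and 431 CPM, adjusted p = 0.02497) lost its call without wild-type replicate 1 or knockout replicate 1 (up to 0.2076), and facility 2 (153, 279 and 270.4 against 392 and 325 CPM, 0.04539) without wild-type replicate 1 or either knockout (up to 0.2244). The average over the 3 strata was 0.72 ± 0.16 (adjusted p = 0.001403). The 8 monocyte markers summed to 165 to 338 CPM in adult wild-type, 938 to 1238 CPM (CD11b low knockouts) and 556 to 1386 CPM (CD11b high knockouts), and their part in the result was not tested.

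Where the other Csf1r comparisons are given next, the same markers summed to 539.9 to 661 CPM in premature Cebpb -/- cells against 2561 to 2678 CPM in their controls, and to 2392 to 2695 CPM in Csf2rb -/- against 2241 to 2893 CPM in +/+ cells. In Lip cells they summed to 124 to 179 CPM (CD11b low) and 544 to 943 CPM (CD11b high) against 391 to 419.9 CPM, and in the chromatin-matched Lip set to 114 to 292 CPM against 346 to 444 CPM. Their part was not tested there either.

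At E18, Csf1r was at 434, 493 and 507 CPM in Cebpb +/+ and at 1143, 864, 954 and 1129 CPM in Cebpb -/- premature alveolar macrophages (log2 fold change 1.1 ± 0.22, adjusted p = 0.002209). In the Csf2rb experiment it was at 381, 593, 460.3 and 429.6 CPM in +/+ and at 2016, 1809.7 and 2464 CPM in -/- cells, the highest Csf1r levels measured (2.27 ± 0.20, 6.516e-05). Neither pair of groups overlapped, and the Cebpb effect was smaller than the Csf2rb effect by 1.12 (interval -1.64 to -0.60, adjusted p = 0.01144). In Ly6C high monocytes, whose wild-type level was already 652 to 989 CPM, the knockouts overlapped with the controls (395 to 891 CPM, -0.11 ± 0.24). Lip/Lip cells had 592 to 662 CPM (CD11b low) and 707 to 883 CPM (CD11b high) against 259 to 290.3 CPM in controls (1.23 ± 0.10, adjusted p = 9.607e-14, and 1.53 ± 0.10, 3.944e-17). The step from CD11b low to high was 0.29 ± 0.09 (adjusted p = 0.01514, up to 0.1147 without low replicate 2 or high replicate 4), where 2 of 7 members were higher and 1 lower (10.1% and 9.48% of genes). In the chromatin-matched Lip set Csf1r was higher by 0.97 ± 0.24 (adjusted p = 0.02138), but not without control replicate 1, 2 or 3 or Lip replicate 1 (up to 0.1077).

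Csf2ra, the GM-CSF α chain, changed little. Its level in adult wild-type libraries was 243, 294, 251 and 246 CPM, in CD11b low knockouts 278, 296, 276 and 381 CPM and in CD11b high knockouts 276, 242, 336 and 296 CPM, with overlap in both (log2 fold change 0.24 and 0.14, adjusted p = 0.4293 and 0.6465). Over the 12 deletion comparisons its log2 fold change ranged from 0.01 to 0.52. It was called higher in facility 2 females (448, 430.1 and 462 against 595 and 643 CPM, adjusted p = 0.02134), though not without wild-type replicate 1 or 2 or knockout replicate 2 (up to 0.09634). It was also called higher in the chimeras at 10 weeks, though not with the replicate number as a block. The average over the strata was 0.33 ± 0.11 (adjusted p = 0.01895, up to 0.09383 without facility 1 wild-type replicate 2, facility 1 knockout replicate 2, male wild-type replicate 1 or male knockout replicate 1). A larger change accompanied loss of the β chain: Csf2ra was at 376, 351, 367 and 352 CPM in Csf2rb +/+ and 696, 455 and 846 CPM in Csf2rb -/- cells (0.98 ± 0.22, adjusted p = 0.01114). Lip CD11b high cells had 347, 354, 332 and 357 CPM against 289.6, 245 and 276 CPM in controls (0.38 ± 0.10, adjusted p = 0.003184), and Lip CD11b low cells (252 to 313 CPM) overlapped with them.

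Csf2rb, the β chain shared by the GM-CSF, IL-3 and IL-5 receptors, was targeted in 1 experiment and is read there first. Csf2rb +/+ libraries had 1023, 831, 1223 and 1167 CPM and Csf2rb -/- libraries 293, 360.2 and 320.2 CPM. The groups were far apart (log2 fold change -1.62 ± 0.20, adjusted p = 0.0004953), but counts remained in all 3 knockouts. The labels do not say which part of the gene the allele removes, and Csf2rb2 lies close by on the same chromosome and may share reads. Csf2rb2 was at 68.1, 30.8, 65.8 and 58.3 CPM in +/+ and 22.4, 49.5 and 104 CPM in -/- cells, with overlap (0.17 ± 0.50). Its share of the summed counts of both genes was 3.57% to 6.24% in controls and 7.11% to 24.5% in knockouts.

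With loss of Cebpb, Csf2rb was lower in 4 comparisons. Wild-type libraries had 888, 777, 1023 and 852 CPM and CD11b high knockouts 535, 572, 559.6 and 597 CPM, all below the controls (log2 fold change -0.66 ± 0.17, adjusted p = 0.00756). CD11b low knockouts lay between, with 701, 714, 845 and 683 CPM, and overlapped with the controls (-0.27 ± 0.17, 0.3116). Facility 2 knockouts had 477 and 372 CPM against 864, 1082 and 983 CPM (-1.16 ± 0.25, adjusted p = 0.00107). The chromatin-matched knockouts had 832, 890.3 and 847 CPM against 1088, 1153 and 1511 CPM (-0.55 ± 0.16, 0.03444), a call lost without wild-type replicate 1, 2 or 3 or knockout replicate 1 (up to 0.1362). With CD11c-Cre (928 to 1208 against 1115 to 1241 CPM) and in Lip CD11b high cells (1182 to 1359 against 1141 to 1416 CPM) the groups overlapped.

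Csf2rb2, the β chain known for IL-3 in mice, was lower in the same adult Cebpb -/- sorts, at 190.4, 178, 158 and 152 CPM in wild type against 103, 64.5, 104 and 117 CPM in CD11b low cells (log2 fold change -0.80 ± 0.22, adjusted p = 0.0169). CD11b high knockouts had 74.5, 114, 143 and 116 CPM (-0.62 ± 0.22, 0.04285). Neither knockout group overlapped with the controls. The CD11b low call was lost without CD11b low replicate 2 (adjusted p = 0.05541), and the CD11b high call without any of the 4 wild-type replicates or CD11b high replicates 1, 2 or 4 (up to 0.1303). In facility 2 females the change was larger (185, 327 and 224 against 109 and 71.2 CPM, -1.42 ± 0.33, adjusted p = 0.00204, and 0.05573 without knockout replicate 2). The chromatin-matched knockouts had 207, 213 and 236 CPM against 287, 304 and 446 CPM (-0.66 ± 0.19, 0.02903), lost without wild-type replicate 2 or 3 or knockout replicate 1 or 2 (up to 0.1112). Males showed the opposite order, with 194 and 251 CPM in knockouts above 131 and 117 CPM in controls, which was not called (0.86 ± 0.34, adjusted p = 0.1347). The effect in males exceeded that in facility 2 females by 2.28 (interval 1.36 to 3.20, adjusted p = 0.003555), a contrast added after the data were seen, in which 2 members and 20.8% of genes were called. Because Csf2rb2 may share reads with Csf2rb, each value of the pair is uncertain. In Lip CD11b low cells Csf2rb2 was slightly higher (168, 192, 208 and 203 against 153, 144 and 165 CPM, 0.32 ± 0.12, adjusted p = 0.03679), lost without control replicate 1 or 2 or low replicate 2, 3 or 4 (up to 0.1768).

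The GM-CSF receptor chains, and the IL-3 β chain encoded by Csf2rb2, differed in level between the E18 and the adult experiment on the Cebpb strain. Cebpb +/+ premature alveolar macrophages had 81.8, 135 and 110.4 CPM of Csf2ra, 510.3, 550.1 and 541 CPM of Csf2rb and 36.0, 43.2 and 41.7 CPM of Csf2rb2. Each was below every adult wild-type library of the same strain, by 1.35 ± 0.22 (Csf2ra, adjusted p = 0.0001245), 0.83 ± 0.21 (Csf2rb, 0.004886) and 2.18 ± 0.20 (Csf2rb2, 5.955e-07) on the log2 scale. In that comparison 3 of 7 members were lower and none higher (20.7% and 21.4% of genes). For Csf2ra and Csf2rb the other E18 control group did not share this: Csf2rb +/+ cells had 351 to 376 CPM of Csf2ra, above the adult Cebpb +/+ libraries (243 to 294 CPM), and 831 to 1223 CPM of Csf2rb, overlapping with them (777 to 1023 CPM). Their Csf2rb2 level was 30.8 to 68.1 CPM. No test was made between these experiments. Age, tissue of origin and experiment cannot be told apart. The knockout effect on Csf2rb2 was higher at E18 than in adult CD11b low cells by 1.33 (interval 0.72 to 1.94, adjusted p = 0.00545).

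**Figure D3:**
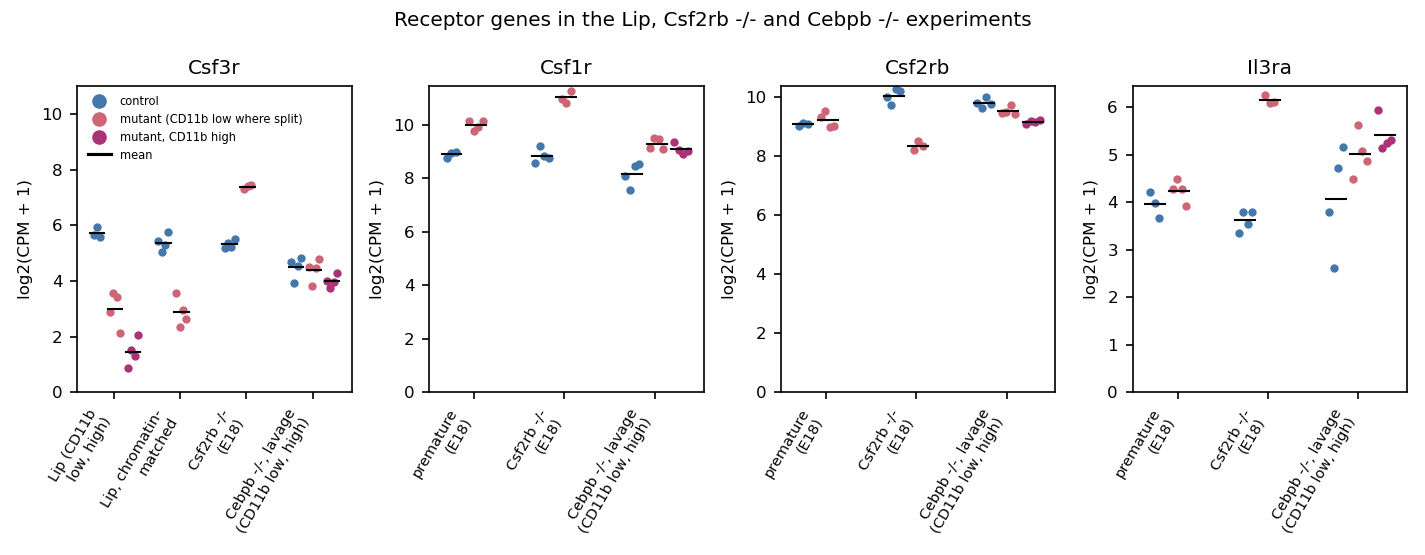
Levels as log2(CPM + 1) in each library for Csf3r, Csf1r, Csf2rb and Il3ra, 1 panel a gene, with controls and mutants of the experiments named on the axis and bars at group means. Csf3r is lower in the Lip libraries and higher in Csf2rb -/- than in their controls, and in Csf2rb -/- libraries Csf1r and Il3ra lie above and Csf2rb below all other libraries of their panels.

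Il3ra, the α chain of the IL-3 receptor, changed most with loss of Csf2rb: 9.23, 12.8, 10.6 and 12.9 CPM in +/+ against 75.7, 66.7 and 67.5 CPM in -/- libraries (log2 fold change 2.71 ± 0.32, adjusted p = 0.0003689). Loss of Cebpb at the same age left it at 18.2, 21.5, 18.3 and 14.1 CPM against 17.7, 14.7 and 11.7 CPM, with overlap (0.29 ± 0.30), and this effect was smaller than that of Csf2rb by 2.36 (interval -3.20 to -1.52, adjusted p = 0.001869). In that comparison of effects 5 of 8 members and 11.4% of genes were called. Beside the Il3ra change in Csf2rb -/- cells, the 11 mast cell and basophil markers summed to 324 to 502 CPM, against 24.9 to 88.3 CPM in +/+ cells. Hdc (204 to 365 CPM) and Gata2 (64.2 to 79.0 CPM) made up most of it, Fcer1a was at 0, and 5 of the 11 were at 0. The 8 dendritic cell markers summed to 100 to 170 CPM against 1.15 to 4.09 CPM, most of it Flt3. The part of these cells in the result was not tested.

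In adult cells without Cebpb, Il3ra moved in different directions. It was higher in facility 2 females (14.1, 20.9 and 18.4 against 57.6 and 64.5 CPM, log2 fold change 1.83 ± 0.35, adjusted p = 0.0004785). It was lower in males (35.5 and 41.0 against 17.6 and 5.45 CPM, -1.70 ± 0.41, 0.01187). Neither pair of groups overlapped, and the facility 1 females, with 26.2 and 23.1 against 14.3 and 21.2 CPM, were not called (-0.46 ± 0.42, 0.4658). In males, leaving out wild-type replicate 2 or knockout replicate 2 ended the call (up to 0.1157), and without knockout replicate 1 the log2 fold change was -2.79.

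The Il3ra effect in facility 2 exceeded that in facility 1 by 2.28 (interval 1.22 to 3.35, adjusted p = 0.01849), where 1 of 8 members and 7.61% of genes were called. It lost its call without facility 1 wild-type replicate 1 or 2, facility 1 knockout replicate 1 or facility 2 knockout replicate 2 (up to 0.1004). The male effect was below that of facility 2, with a difference of -3.53 (interval -4.59 to -2.47, adjusted p = 0.0004857; -4.58 without male knockout replicate 1 and -2.90 without replicate 2) and did not differ from that of facility 1 at the threshold (-1.24, interval -2.38 to -0.10, adjusted p = 0.3916). Against facility 1, no member was called by edgeR or DESeq2, 2 had an unadjusted p under 0.05, and 0.172% of genes were called. Between the wild types of the facilities no member was called by edgeR or DESeq2, none had an unadjusted p under 0.05, and 0.199% of genes were called. With 2 knockout libraries a stratum and the facility of the males not given, sex and facility cannot be told apart.

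The other adult results for Il3ra were also split. It was higher in the chromatin-matched knockout (19.5, 18.2 and 15.9 against 51.0, 42.2 and 63.0 CPM, log2 fold change 1.54 ± 0.20, adjusted p = 0.000421). In CD11b high knockouts it was at 60.5, 34.1, 37.0 and 38.7 CPM, against a spread-out control of 12.9, 5.16, 25.3 and 34.5 CPM. These groups overlapped, and the call (1.06 ± 0.37, adjusted p = 0.04233) ended when leaving out wild-type replicate 1 or 2 or CD11b high replicate 1 or 4 (up to 0.1336). With CD11c-Cre it was lower (10.6, 13.2 and 12.5 against 7.81, 9.34, 6.01 and 7.44 CPM, -0.65 ± 0.20, adjusted p = 0.0481), a call lost with DESeq2 (0.1055) and without control replicate 1, 2 or 3 or knockout replicate 1 or 3 (up to 0.1606). In Lip/Lip cells (11.7 to 27.4 CPM against 18 to 23.6 CPM in controls) it overlapped with the controls in both CD11b fractions.

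Csf3r, the G-CSF receptor, separated the Lip allele from the knockout. Lip +/+ libraries had 49.1, 60.6 and 46.2 CPM, Lip/Lip CD11b low libraries 6.40, 10.9, 9.58 and 3.33 CPM and CD11b high libraries 0.823, 1.87, 1.48 and 3.11 CPM. Neither Lip group overlapped with the controls (log2 fold change -2.86 ± 0.25, adjusted p = 5.039e-13, and -4.76 ± 0.35, 4.207e-16). CD11b high cells were also below CD11b low cells (-1.90 ± 0.48, adjusted p = 0.002549). The chromatin-matched Lip set gave 42.5, 32.2, 37.8 and 52.5 CPM in controls and 11, 4.12, 6.77 and 5.16 CPM in Lip/Lip cells (-2.59 ± 0.33, adjusted p = 7.736e-05). Each of these calls against controls held without any 1 library.

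In Cebpb -/- cells Csf3r stayed near its control: 24.4, 14.2, 22.1 and 27.4 CPM in wild type, 21.6, 13.2, 21.1 and 26.7 CPM in CD11b low and 14.8, 12.5, 14.6 and 18.6 CPM in CD11b high libraries, with overlap (log2 fold change -0.09 ± 0.28 and -0.55 ± 0.28). The knockout effect exceeded the Lip effect by 2.77 in CD11b low (interval 1.99 to 3.55, adjusted p = 2.563e-05) and by 4.22 in CD11b high cells (interval 3.35 to 5.09, 1.412e-06). Of the members, 2 of 7 were called in the first of these comparisons of effects, with 4.81% of genes, and 1 of 8 in the second, with 5.54%. The other call in the first was Csf2rb2, with a difference of -1.10 (interval -1.56 to -0.65, adjusted p = 0.002596). The strains differ in background, which is mixed in both, and were controlled separately.

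The sum of the 10 neutrophil markers was lower in the Lip cells, as Csf3r was. It was 150 to 160 CPM in Lip +/+, 54.4 to 101 CPM (Lip CD11b low) and 30.5 to 43.7 CPM (Lip CD11b high). Of the 10 markers 7, 2 and 4 were at 0 in turn. The lower sum thus came from the few markers detected in Lip +/+, while more of the 10 were detected in Lip cells. In the chromatin-matched set they summed to 54.2 to 70.2 CPM in +/+ and 13.2 to 31.9 CPM in Lip/Lip libraries, with 7 and 5 at 0. Their part in the result was not tested.

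Csf3r rose in 3 other settings. Csf2rb -/- premature alveolar macrophages had 156, 167 and 175 CPM against 35.4, 39.8, 36.5 and 44.6 CPM (log2 fold change 2.18 ± 0.22, adjusted p = 0.0001467), while the neutrophil markers summed to 58.7 to 128 CPM in -/- and 102 to 354 CPM in +/+ cells. The Cebpb effect at E18 was below this by 1.96 (interval -2.61 to -1.32, adjusted p = 0.001009). The Csf2rb -/- level of Csf3r fell within the range of the Ly6C high monocytes of the other strain (115 to 211 CPM in wild type, 123 to 166 CPM in Cebpb -/-), although these are in another table. Chromatin-matched Cebpb -/- cells had 28.1, 18.3 and 33.8 CPM against 14.1, 9.48 and 10.0 CPM (1.26 ± 0.27, adjusted p = 0.007152), with neutrophil markers at 181 to 474 CPM against 45.0 to 55.8 CPM. CD11c-Cre knockouts had 27.5 to 61.4 CPM against 15.7, 30.3 and 22.8 CPM, which overlap (0.87 ± 0.27, adjusted p = 0.04036), with neutrophil markers at 338 to 399 CPM against 84.2 to 102 CPM. That call was lost without control replicate 1 or 3 or knockout replicate 1, 3 or 4 (up to 0.1852). The part of the neutrophil markers was not tested.

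Kit, a receptor tyrosine kinase that mature alveolar macrophages hardly express, was near 0 in adult lavage controls and appeared in knockouts. Adult wild-type libraries had 0, 2.58, 0 and 1.01 CPM, CD11b low knockouts 2.02, 8.27, 3.33 and 2.43 CPM and CD11b high knockouts 56.1, 54.1, 21.2 and 33.3 CPM. CD11b low cells overlapped with the controls and CD11b high cells did not. Since the 4 controls held 3 counts in all, the change is given as a ratio of pooled counts with its exact 95% Poisson interval, which covers counting error only. It was 57.1 (19.3 to 279) from 225 counts in CD11b high cells and 4.61 (1.32 to 24.7) from 16 counts in CD11b low cells. Kit was called in CD11b high (adjusted p = 9.966e-07) and not in CD11b low cells (0.1265). The fitted log2 fold change in CD11b high cells, which is no bound at so few control counts, was 5.60, but 6.68 without wild-type replicate 2 and 4.99 without wild-type replicate 3. Kit was the only member called between the CD11b fractions (log2 fold change 3.53 ± 0.47, adjusted p = 0.0001612), where 1.19% of genes were higher and 2.61% lower.

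The strata repeated the appearance of Kit. Facility 1 females had 0 counts in both controls and 21.3 and 14.3 CPM in knockouts, at least 48.1-fold higher against a floor of 3 counts over the group, and 0.156, 0.137 and 0.512 CPM in heterozygotes. Facility 2 had 0, 0 and 0.153 CPM in controls, a single count, and 70.3 and 11.9 CPM in knockouts, which gives a ratio of 505 with an interval from 89.9 to 19999. Males had 0 and 0.358 CPM, 2 counts in all, and 3.45 and 12.4 CPM, a ratio of 35.0 (9.46 to 293). The adjusted p was 0.001168, 8.559e-06 and 0.01731 in turn, and in males the call ended when leaving out wild-type replicate 1 or 2 or knockout replicate 2 (up to 0.1326). The fitted sizes also moved with single libraries. In facility 2 the log2 fold change was 9.27, but 10.93 without wild-type replicate 3, 7.54 without knockout replicate 1 and 10.07 without knockout replicate 2. In males it was 5.09, but 8.61 without wild-type replicate 2, 5.75 without knockout replicate 1 and 3.90 without knockout replicate 2, with a value between the last and 5.09 without wild-type replicate 1. In the chromatin-matched set Kit was at 0.454, 0.911 and 0.927 CPM in wild type and 16.9, 26.0 and 39.3 CPM in Cebpb -/- cells (log2 fold change 5.08 ± 0.44, adjusted p = 3.626e-05).

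Markers of mast cells, which also carry KIT, were near 0 in the adult knockout sorts. All 11 mast cell and basophil markers were at 0 in wild-type and CD11b low libraries, and 10 of 11 in CD11b high libraries, where they summed to 0 to 0.832 CPM. They summed to 0.172 to 0.214 CPM in facility 1 and 0.409 to 0.811 CPM in facility 2 knockouts, and to 13.7 to 27.4 CPM in the chromatin-matched knockouts, nearly all of it Hdc, with 9 of 11 at 0. The 8 lymphocyte markers summed to 64.2 to 108 CPM (CD11b high), 9.92 to 49.8 CPM (CD11b low) and 2.57 to 4.06 CPM (wild type), almost wholly Il7r, with 5 of 8 at 0 in both knockouts. Their part in the Kit result was not tested.

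**Figure D4:**
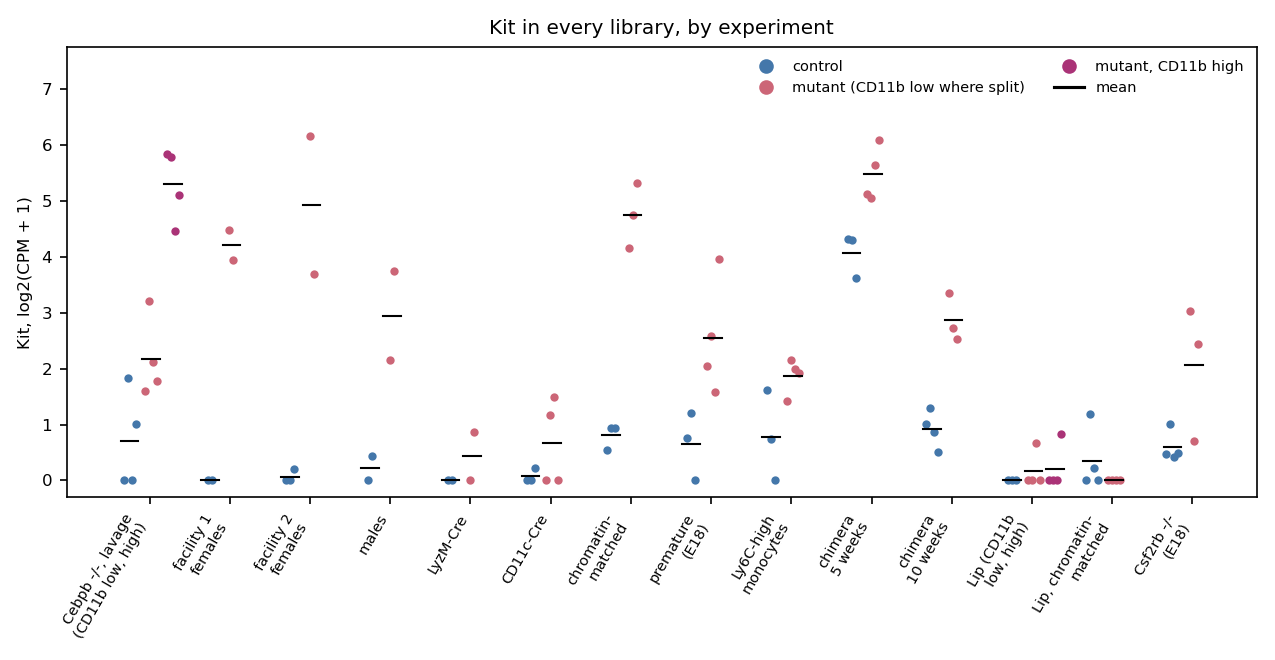
Kit in each library as log2(CPM + 1), by experiment, with controls in blue, mutants in pink and CD11b high mutants in purple; the bar is the group mean. Kit is near 0 in adult lavage controls and in all Lip libraries, and highest in CD11b high knockouts, facility 2 knockouts and knockout cells of the chimeras at 5 weeks. The wild-type cells of the chimeras at 5 weeks had 11.3 to 19.0 CPM.

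In other settings Kit was scarce. CD11c-Cre knockouts had 0, 1.26, 1.83 and 0 CPM and LyzM-Cre knockouts 0 and 0.833 CPM, and Kit was not tested in either. Lip/Lip cells had a single library above 0 in each CD11b fraction, at 0.599 and 0.777 CPM, and none in the chromatin-matched set. Csf2rb -/- premature cells had 7.17, 0.635 and 4.45 CPM, overlapping with 0.385, 1.02, 0.341 and 0.413 CPM in their controls, too few for edgeR's filter, while DESeq2 called Kit (adjusted p = 0.04834). Premature Cebpb -/- cells had 3.14, 5.00, 1.99 and 14.6 CPM against 0.688, 1.31 and 0 CPM (log2 fold change 3.24 ± 0.93, adjusted p = 0.02241), a call lost without wild-type replicate 1 (0.08025) or 3 (2.64, 0.09727), while without wild-type replicate 2 the log2 fold change was 4.02. Without knockout replicate 1, 2 or 4 Kit fell below the filter on low counts. There the mast cell and basophil markers summed to 17.1 to 49.7 CPM in knockouts and 18.7 to 114 CPM in controls, and the dendritic cell markers to 406 to 905 CPM against 17.2 to 25.4 CPM. Their part was not tested.

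The chimeras set knockout cells beside wild-type cells of the same mixtures at 5 and 10 weeks, and the members differed in how the gap changed. Csf1 did not separate the donors at 5 weeks, with 40.8, 36.7 and 31.1 CPM in wild-type and 55.0, 54.5, 35.1 and 42.2 CPM in knockout cells (log2 fold change 0.40 ± 0.20, adjusted p = 0.1781). At 10 weeks wild-type cells had 14.4, 18.5, 15.2 and 8.98 CPM and knockout cells 153, 156 and 216 CPM, with no overlap (3.65 ± 0.22, adjusted p = 3.098e-08). The effect was larger at 10 weeks by 3.25 (interval 2.68 to 3.83, adjusted p = 7.472e-06), as wild-type cells fell by 1.34 (adjusted p = 0.0002725) and knockout cells rose by 1.91 (1.474e-05). In the comparison of the effects at the 2 times 4 of 8 members and 13.5% of genes were called. The comparisons of donors and of times share libraries. Between the times, 4 members fell and none rose in wild-type cells (10.8% and 7.88% of genes), and 2 rose (15.8%) and 3 fell (15.7%) in knockout cells.

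Csf1r turned its direction between the times. At 5 weeks it was at 888, 949 and 951 CPM in wild-type and 689, 650.4, 618 and 685 CPM in knockout cells (log2 fold change -0.46 ± 0.14, adjusted p = 0.02623, up to 0.08681 without knockout replicate 2 or 3 or wild-type replicate 2 or 3). At 10 weeks it was at 692, 566, 477 and 528 CPM in wild-type and 878, 1038 and 717 CPM in knockout cells (0.66 ± 0.14, adjusted p = 0.001215). The groups did not overlap at either time, and the effects differed by 1.13 (interval 0.73 to 1.52, adjusted p = 0.001827). Wild-type cells fell by 0.71 (adjusted p = 0.001693). The rise in knockout cells (0.42 ± 0.14, 0.03371) was lost without 5-week knockout replicate 2, 3 or 4 or 10-week knockout replicate 2 (up to 0.1872).

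Csf2rb changed in the opposite sense. Knockout cells had 1187, 980.3, 1328 and 1195 CPM at 5 weeks, above 846, 861 and 818 CPM in wild-type cells (log2 fold change 0.51 ± 0.16, adjusted p = 0.03436). At 10 weeks they had 821, 526 and 564 CPM, overlapping with 752, 963, 1037 and 819 CPM (-0.46 ± 0.16, 0.03042). The effects differed by -0.97 (interval -1.42 to -0.51, adjusted p = 0.01144), and knockout cells fell by 0.87 between the times (0.0009807). Each single call was fragile: that at 5 weeks was lost without knockout replicate 1, 3 or 4 or any wild-type replicate (up to 0.1214), and that at 10 weeks without knockout replicate 2 or 3 or wild-type replicate 2 or 3 (up to 0.146). Csf2rb2 fell in knockout cells too, from 83.6 to 161 CPM to 48.3 to 103 CPM, with overlap (-0.72 ± 0.25, 0.03491, lost without 5-week replicate 1, 3 or 4 or 10-week replicate 2 or 3, up to 0.1571). Csf2ra was higher at 10 weeks (399, 402 and 461 against 361, 338, 286 and 282 CPM, 0.44 ± 0.12, adjusted p = 0.007988). At 10 weeks libraries of the same replicate number deviated together, and with the replicate number as a block Csf2ra (0.40, adjusted p = 0.1391) and Csf2rb (-0.51, 0.1258) were not called, the count of all genes called falling from 5072 to 3049.

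Il3ra and Kit were higher in knockout cells at both times while falling in wild-type cells. Il3ra was at 40.1, 53.4 and 37.4 CPM in wild-type and 77.5, 78.4, 66.0 and 65.1 CPM in knockout cells at 5 weeks (log2 fold change 0.75 ± 0.18, adjusted p = 0.006525, and 0.05179 without wild-type replicate 3). At 10 weeks the values were 14.3, 9.51, 9.45 and 10.2 CPM against 41.9, 53.4 and 62.9 CPM (2.28 ± 0.19, adjusted p = 2.132e-07). The effect grew by 1.53 (interval 1.03 to 2.03, adjusted p = 0.001261), with a fall of 1.97 in wild-type cells (2.929e-06) and one of 0.43 in knockout cells that missed the threshold (0.07113). Kit went from 19.0, 18.6 and 11.3 CPM to 1.02, 1.46, 0.822 and 0.418 CPM in wild-type cells and from 34.0, 32.2, 48.9 and 67.3 CPM to 9.25, 5.60 and 4.78 CPM in knockout cells. The donors did not overlap at either time (1.51 ± 0.28, adjusted p = 0.001275, and 2.79 ± 0.42, 6.154e-05), and the change of the effect was not called (1.29, interval 0.28 to 2.29, adjusted p = 0.107).

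Other cell types' markers moved with these changes in the chimeras. The dendritic cell markers, mainly Ccr7, summed to 545 to 711 CPM in wild-type and 2308 to 4096 CPM in knockout cells at 5 weeks, and to 39.7 to 133 CPM and 336 to 1454 CPM at 10 weeks. The alveolar macrophage markers summed to 6577 to 11714 CPM in wild-type cells at 5 weeks and 20657 to 32590 CPM at 10 weeks, and to 2614 to 3077 CPM and 3598 to 4811 CPM in knockout cells. Mast cell and basophil markers stayed at 0.474 to 12.9 CPM over the 4 groups, with 7 to 9 of the 11 at 0. The part of these cells in the results was not tested.

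**Figure D5:**
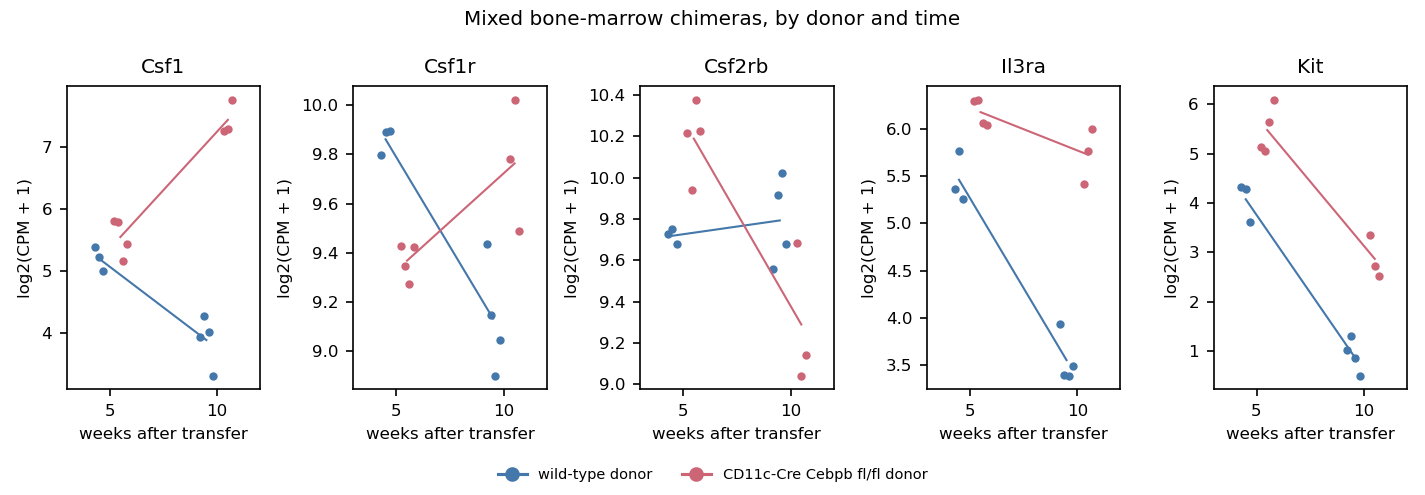
Levels as log2(CPM + 1) of Csf1, Csf1r, Csf2rb, Il3ra and Kit in each library of the chimeras at 5 and 10 weeks, for wild-type and knockout donor cells; lines join group means of different libraries. The donors overlap for Csf1 at 5 weeks and are apart at 10 weeks, Csf1r and Csf2rb change their order, and Kit falls in both donors.

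The ligands and receptors that complete the family were mostly too low to be tested. Of 9 (Csf2, Csf3, Il3, Il5, Il34, Kitl, Flt3l, Il5ra and Flt3), 1 to 4 passed the filter in the comparisons in which any did. Kitl, the ligand of KIT, was higher in Lip/Lip CD11b low (2.99 to 9.48 CPM, adjusted p = 0.0001683) and CD11b high cells (11.5 to 16.8 CPM, 1.439e-08) than in controls, which held a single Kitl count, and Kit itself was near 0 in these cells. Flt3, the receptor of FLT3 ligand, was higher in Csf2rb -/- cells (7.90, adjusted p = 1.289e-05). Of the 4 tested in the chimeras at 10 weeks, Kitl (4.66), Flt3 (3.56) and Flt3l (1.1) were higher in knockout cells, and Csf3, the gene of G-CSF, was lower, at 0 counts in all 3 knockout libraries against 0.158 to 1.03 CPM in wild-type cells.

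Genes known to act downstream were counted in lists chosen for the pathway, to be read against the shares of all genes called higher and lower that are given above for each comparison. Of 12 regulators and products of GM-CSF driven maturation, 1 was higher and 7 lower in Cebpb -/- CD11b low cells (median log2 fold change -1.31 against 0.00 for all genes). The largest falls were those of Krt79 (-5.94), Marco (-5.44), Car4 (-4.40) and Fabp1 (-2.91). In CD11b high cells 2 were higher and 8 lower (median -3.23). In Csf2rb -/- cells 1 of 10 tested was higher and 6 lower (median -2.84), led by Fabp4 (-7.70), Car4 (-6.35), Ear2 (-4.67) and Marco (-3.63). All genes named here from this list are also among the alveolar macrophage markers summed above, so the lists are not independent. In premature Cebpb -/- cells 2 were higher and 5 lower of 9 tested (median -4.50), and in Lip/Lip CD11b high cells 1 higher and 8 lower of 12 (median -2.17).

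The list of tissue macrophage genes that depend on CSF1R went the other way. In Cebpb -/- CD11b low cells 7 of 10 tested were higher and 1 lower (median 3.75), among them the complement genes C1qc (6.84), C1qa (6.72) and C1qb (5.74). In CD11b high cells 7 of 10 were higher and 1 lower (3.97), and in Csf2rb -/- cells 8 of 11 were higher and none lower (4.54). In the chimeras 1 of 12 was higher and 3 lower at 5 weeks (median -0.14), and 9 were higher and 2 lower at 10 weeks (2.72). Premature Cebpb -/- cells had 7 of 12 higher (1.76), and Ly6C high monocytes 1 of 12 (0.12).

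Of 22 kinases and adaptors that carry the receptors' signal, 1 was higher and 4 lower of 21 tested in Cebpb -/- CD11b low cells (median -0.25), where 8.29% of all genes were higher and 6.83% lower. In Csf2rb -/- cells 4 were higher and 1 lower (median 0.24, against 11% and 11.4% of all genes), and in the chimeras at 5 weeks 9 were higher and none lower (0.23, against 12.1% and 10.5%). Among 12 feedback and STAT5 target genes, 5 were higher and 4 lower in Csf2rb -/- cells, where Socs2 (-4.76) and Id1 (-3.19) were lower and Ccnd1 (4.50) and Bcl6 (3.38) higher. In Cebpb -/- CD11b low cells 5 were higher and 2 lower of 10 tested (median 0.53).

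Across the 21 groups of the largest table, the genes whose group means (log2(CPM + 1)) were most like each member's were listed among 9339 genes. The groups share libraries' depth and experiment, so the correlations are descriptions. For Csf1 they were Bcl2 (Pearson r = 0.94), Abcb1b (0.94), Pdgfa (0.93), Eng (0.92) and Cd300a (0.92), and for Csf1r Fli1 (0.87), Khdrbs1 (0.87), Nbeal2 (0.86), Mef2c (0.85) and Ext1 (0.85). For Kit they were S1pr1 (0.93), F5 (0.93), Gprc5b (0.92), Cacna1a (0.92) and Hpse (0.90). The nearest were Sh2b1 (0.90) for Csf2ra, Myo6 (0.90) for Csf2rb, Gas2l1 (0.90) for Csf2rb2, Rsbn1l (0.85) for Il3ra and, less close, Arhgef18 (0.76) for Csf3r.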

How the data were processed

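The 99 RNA libraries were prepared with MARS-seq primers, which prime on the poly(A) tail, per the labels' protocols. The authors deposited whole-number counts per Ensembl gene in 3 tables. The submitters' processing notes list STAR 2.6.1a, featureCounts 1.6.3 and GRCm38; how molecular barcodes and reads shared by near-identical genes were handled is not stated there. Peaks of 5 ATAC-seq and 2 ChIP-seq libraries were deposited per library, with the authors' fold enrichment (a ratio), −log10 p and q, and score. For peaks, the submitters' processing notes name MACS2 2.2.7.1, BWA 0.7.17 and Bowtie2. Only peak positions, fold and −log10 q were used.

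Each table was normalized separately with edgeR 4.0.16 (TMM, R 4.3.3). Genes passing filterByExpr (minimum count 10; 8502 to 11136 genes a comparison) were tested with edgeR's quasi-likelihood test, with Benjamini-Hochberg adjustment over all genes tested, at 0.05. Of the 32 comparisons, those of the knockout effect in males with the effect in females of either facility were added after the data were seen. Differences between effects are interaction contrasts, and intervals are 95% intervals of the log2 difference. Alternatives were RLE size factors, no filter on low counts, DESeq2 1.42.0, Csf2rb and Csf2rb2 counts summed, a replicate block and leaving out each library. Replicate numbers were taken as pairing samples only in the chimeras at 10 weeks, from the data, where the deviations of same-numbered libraries from their group means correlated at 0.125, 0.128 and 0.128. The main fits used no block there either, so their 10-week values and counts are unpaired. The block was fitted only as an alternative. Between Lip CD11b low and high libraries these correlations were 0.181, 0.0967, 0.129 and 0.235. Between the donors at 5 weeks they were 0.352, 0.018 and 0.055. Neither was taken as paired, although pairing of these libraries is possible. The scripts were tested on simulated data.

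The members, and the marker and pathway lists, were chosen with earlier results of these data known. Named genes were the members, the targeted gene Cebpb, at most 4 called genes per list by largest change, and the 5 genes most like each member. Promoter windows came from a RefSeq table (GRCm38.p6) by symbol. Csf1r and Csf2rb had no window there, so their promoters were not searched for motifs.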

Additional observations from a re-analysis of the deposited data

Results flagged for a closer look

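In 104 sets of 4 or more libraries of 1 group, 1 set for each member, 7 held a library far from the others by Dixon's test, which chance alone gives in about 1 of 20 groups. Kit gave 4 of them, at levels near 0: 0.599 CPM in Lip CD11b low replicate 3 and 0.777 CPM in Lip CD11b high replicate 4, where the others were at 0, 1.02 CPM in Csf2rb +/+ replicate 2 (others 0.341 to 0.413) and 1.29 CPM in chromatin-matched Lip control replicate 2 (others 0 to 0.170). The other 3 were Csf2ra in adult wild-type replicate 2 (294 CPM, others 243 to 251), Il3ra in 10-week wild-type chimera replicate 1 (14.3 CPM, others 9.45 to 10.2) and Csf2rb in chromatin-matched Lip control replicate 2 (884 CPM, others 764 to 785).

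Effects differed between settings of the same mutation or between mutations, by interaction contrasts in edgeR, for 17 pairs of a member and a contrast, on the log2 scale. The knockout effect on Il3ra differed between females of facility 2 and facility 1 by 2.28, and between males and females of facility 2 by -3.53, where the effect on Csf2rb2 differed by 2.28. Between 10 and 5 weeks in the chimeras it differed by 3.25 for Csf1, 1.13 for Csf1r, -0.97 for Csf2rb and 1.53 for Il3ra. Between E18 and adult CD11b low cells it differed by -2.46 for Csf1 and 1.33 for Csf2rb2. At E18 the effect of Cebpb loss differed from that of Csf2rb loss by -1.92 for Csf1, -1.12 for Csf1r, 1.84 for Csf2rb, which the second mutation targets, -1.96 for Csf3r and -2.36 for Il3ra. The effect of Cebpb loss differed from that of the Lip allele by -1.10 for Csf2rb2 and 2.77 for Csf3r in CD11b low cells and by 4.22 for Csf3r in CD11b high cells.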

How the results depend on the processing

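Counts of members called are the numbers given below. With RLE size factors all 101 calls were kept. The calls lost were 6 without the filter on low counts and 2 with DESeq2, and none changed direction. With Csf2rb and Csf2rb2 counts summed under Csf2rb, Csf2rb2 had no value of its own, so its calls were not scored. Of the other calls 90 were kept and 1 was lost in that setting, and none changed direction. Counts moved from 0 to 1 in heterozygotes and from 4 to 2 with CD11c-Cre without the filter. With Csf2rb and Csf2rb2 summed they moved from 2 to 1 in the contrasts of E18 with adult and of knockout with Lip in CD11b low cells. In both, Csf2rb2 was 1 of the 2 members called and was no longer counted. They moved from 1 to 3 with DESeq2 in the contrast of knockout with Lip in CD11b high cells. Counted gene by gene, C/EBPβ regions bound in both samples numbered 14 within 10 kb and 37 within 50 kb. The 50 kb windows of Csf2rb (7) and Csf2rb2 (10) overlap, so some regions count for both genes and 37 exceeds the number of separate regions.

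Apart from the chimeras at 10 weeks, replicate numbers were treated only as shared numbers. With a replicate block the count moved from 6 to 3 in CD11b high knockouts, 3 to 5 in males and 2 to 1 in premature Cebpb -/- cells. It moved from 4 to 7 in the chimeras at 5 weeks and from 5 to 2 in the contrast of Cebpb with Csf2rb loss at E18. Of the members' calls that were scored with the replicate block, 18 ended and 82 were kept. With the pairing of the 2 libraries a group crossed, chosen after seeing the data, 4 members were called in facility 1 (3 in the fit without a block) and 1 with LyzM-Cre (1), with 2491 (2565) and 747 (405) genes called in the tables.

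Leaving out 1 library at a time ended a call in 100 of 818 refits of a called member and reversed none. Refits in which the member fell below the filter on low counts are in neither number. This was so for Kit in premature Cebpb -/- cells, where 4 of 7 refits were scored. The counts ranged from 2 to 3 in CD11b low, 4 to 6 in CD11b high, 1 to 1 between these, 2 to 4 in facility 1, 0 to 0 in heterozygotes and between wild types of the facilities, 4 to 7 in facility 2, 1 to 3 in males, 4 to 6 over the strata and 0 to 2 for the facility contrast. They ranged from 1 to 4 with LyzM-Cre, 2 to 4 with CD11c-Cre, 3 to 4 in Lip CD11b low, 4 to 5 in Lip CD11b high, 2 to 4 between these, 1 to 3 in premature Cebpb -/-, 6 to 7 in Csf2rb -/- and 0 to 1 in Ly6C high cells. They ranged from 1 to 3 at 5 weeks, 5 to 6 at 10 weeks, 4 to 4 and 3 to 6 between the times in wild-type and knockout cells, 4 to 5 for the difference of the effects, 4 to 7 and 2 to 3 in the chromatin-matched Cebpb and Lip sets, and 3 to 4 between E18 and adult wild type. For the contrasts they ranged from 2 to 2 (E18 with adult, and knockout with Lip in CD11b low), 4 to 6 (Cebpb with Csf2rb loss), 1 to 2 (knockout with Lip in CD11b high), 2 to 3 (males with facility 2) and 0 to 1 (males with facility 1).

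Single libraries moved a count by over 1.5 times in 11 comparisons: without facility 2 knockout replicate 2 it was 4, and without male wild-type or knockout replicate 2 it was 1. The facility contrast gave 0 without facility 1 wild-type replicate 1 or 2, facility 1 knockout replicate 1 or facility 2 knockout replicate 2, and 2 without facility 1 knockout replicate 2. LyzM-Cre gave 4 and 3 without knockout replicates 1 and 2, and CD11c-Cre 2 without control replicate 1 or 3 or knockout replicate 1 or 3. Premature Cebpb -/- cells gave 1 without wild-type replicate 3 or knockout replicate 1, 2 or 4, Ly6C high cells 0 without wild-type replicate 2, and the chimeras at 5 weeks 2 without knockout replicate 3 or wild-type replicate 2 and 1 without wild-type replicate 3. Knockout cells between the times gave 3 without 5-week replicate 3 or 4 or 10-week replicate 2, the contrast of knockout with Lip in CD11b high cells 2 without CD11b high replicate 1 or 3, and males with facility 1 gave 1 without facility 1 knockout replicate 1. The causes were not tested. Depth limits the size of the Kit change in the wild-type lavage groups with few counts (3 in the CD11b sorts, 0 in facility 1, 1 in facility 2 and 2 in males).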
